A study of Mus musculus with 24 samples.

Results

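The livers of mice with acute pancreatitis (AP) were compared with the livers of control mice (Con), using the 8 AP and the 8 Con libraries, which are 16 of the 24 RNA sequencing libraries in the series. The members were taken by their labels. All 3 groups are wild-type Balb/c mice aged 6 weeks, and the remaining 8 libraries come from severe acute pancreatitis (SAP), the form of the disease that damages distant organs. For the way pancreatitis was brought about and the time of sampling, the sources used here give nothing. No label states that each library is a separate mouse, so every p-value measures the spread between these libraries. Levels are in transcripts per 1000000 (TPM) as the authors deposited them, and since TPM keeps no record of read numbers, the depth behind each value is unknown.

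Mitochondria carry a small circular genome whose genes encode core subunits of the respiratory chain, 2 ribosomal RNAs and transfer RNAs, and hepatocytes, which are rich in mitochondria, hold large amounts of these transcripts. Over evolution, pieces of that genome were copied into nuclear chromosomes, and a read from such a stretch cannot be placed by its sequence alone. TPM adds up to a fixed total in each library, so a fall of very abundant transcripts raises the TPM of all the others even where their amounts do not change. The AP and Con libraries differ in just this respect, and each result below is therefore given on up to 3 scales, namely the values as deposited, the values rescaled to 1000000 TPM without the mitochondrial genes (whose symbols start with mt-), and the values rescaled without those genes and without their nuclear copies.

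The 7 nuclear copies lie next to each other on the minus strand of chromosome 1 in the GENCODE M21 annotation of mouse genome GRCm38, and at least 90% of the 50-base windows of each also occur in a mitochondrial gene. The 2 pairs printed here show why the copies must be handled with the mitochondrial genes. In the first pair, the start of the copy Gm29216 (chr1:24616123-24616197, minus strand) is set against bases 1054 to 1128 of mt-Co1 (chrM:6381-6455, plus strand), which encodes a catalytic subunit of cytochrome c oxidase, and capitals mark the bases that differ.
mt-Co1: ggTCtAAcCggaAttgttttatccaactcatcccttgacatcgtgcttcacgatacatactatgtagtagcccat
Gm29216: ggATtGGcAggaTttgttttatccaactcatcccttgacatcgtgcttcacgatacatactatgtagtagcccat
The 6 differing bases are T1056A, C1057T, A1059G, A1060G, C1062A and A1066T, counted from base 1 of mt-Co1 with the base of mt-Co1 first, and the other bases of the 492-base copy were identical at this offset. In the second pair, the start of mt-Co2 (chrM:7013-7072, plus strand), which encodes another subunit of the same enzyme, is set against the start of the copy Gm28661 (chr1:24615506-24615565, minus strand).
mt-Co2: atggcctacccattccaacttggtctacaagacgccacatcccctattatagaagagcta
Gm28661: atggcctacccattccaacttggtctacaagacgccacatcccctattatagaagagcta
All 681 bases of Gm28661 are identical to mt-Co2, so no read within them can tell the genes apart.

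Transcripts of the mitochondrial genome made up less of the total in AP livers. Their share of TPM was between 12.5% and 22.2% in Con libraries (median 15.6%, mean 17.1 ± 3.68%, SD, n = 8) and between 7.81% and 13.7% in AP libraries (median 10.9%, mean 10.9 ± 2.0%, n = 8). The nuclear copies held a further 8.17% to 14.7% in Con (median 11.0%) and 5.18% to 9.50% in AP (median 6.54%). Together they took 28.4 ± 6.02% of TPM in Con, 18.0 ± 3.44% in AP and 7.38 ± 1.65% in SAP. In 6 of 8 AP libraries the joint share was below that of every Con library, and the other AP libraries overlapped the lower Con libraries. Library totals ran from 986423 to 993642 TPM, and between 17301 and 18478 genes were above 0 TPM in the Con libraries and between 17341 and 17854 in the AP libraries.

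**Figure D1:**
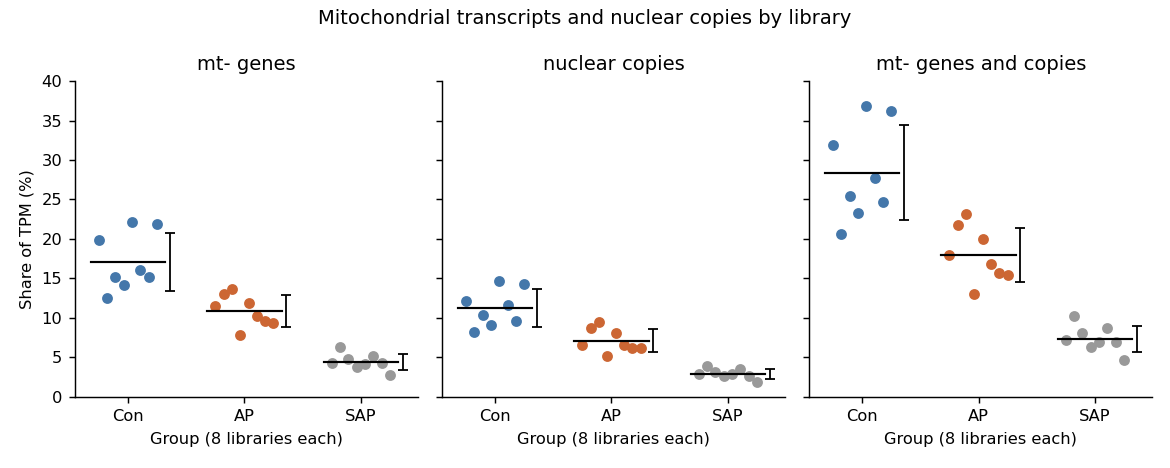
Share of TPM (%) on mitochondrial genes, on their nuclear copies and on both in each library of the Con, AP and SAP groups (8 libraries each). Points are libraries, lines are group means and bars are the SD; 6 of 8 AP points in the joint panel lie below every Con point.

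Genes were tested with limma on log2(TPM + 1), a scale on which changes at low levels come out too small, and a gene is said to rise or fall where its adjusted p was under 0.05 over all genes tested. As deposited, 578 of 10555 genes (5.48%) passed between AP and Con, 459 of them higher in AP (4.35% of genes tested) and 119 lower (1.13%). The AP group was not uniform in many of the called genes that were followed by name. In 48 of 104 of them, AP 15, 17, 18 and 19, which had the lowest joint shares of mitochondrial genes and copies, did not overlap AP 11, 12, 13 and 16, so medians of AP can lie between these sets. The sets were chosen after seeing the data, and the same count over all genes tested was not made. Whether 48 of 104 is more than among all genes tested is therefore unknown. Of the 13 protein genes of the mitochondrial genome 3 fell, namely mt-Co1, mt-Nd5 and mt-Nd4l, and of its 5 tested genes for ribosomal and transfer RNAs 1 fell, mt-Tq (at an unadjusted p under 0.05 these numbers were 9 and 2, all lower). The gene mt-Co1 ranged from 49501 to 97657 TPM in Con (median 61342) and from 26968 to 51221 TPM in AP (median 42152). Of the AP libraries, 7 were below every Con library, and the log2 difference was -0.77 ± 0.16 (SE, adjusted p = 0.0087). The gene mt-Nd5, which encodes a subunit of complex I, ranged from 10729 to 16814 TPM in Con (median 12676) and from 6505 to 11232 TPM in AP (median 9164), with a log2 difference of -0.57 ± 0.16 (limma adjusted p = 0.0401). Another complex I subunit, mt-Nd4, named after its values were seen, was at a median of 1682 TPM in Con and 2254 TPM in AP with overlapping libraries, and its log2 difference of 0.61 did not pass (limma adjusted p = 0.334). The smaller complex I subunit mt-Nd4l was at a median of 5012 TPM in Con and 3015 TPM in AP (log2 difference -0.84 ± 0.24, limma adjusted p = 0.0401).

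Copies carried most of the signal of some of these genes. Of each sum of Gm28661 and mt-Co2, Gm28661 held a median of 99.3% in Con and 99.2% in AP, although the sequences are identical. The copy of mt-Co3, Gm28437, was between 27512 and 55785 TPM in Con (median 42926) and between 17107 and 36197 TPM in AP (median 21225), with a log2 difference of -0.78 ± 0.18 (limma adjusted p = 0.0175). Gm28661 fell from a median of 34465 TPM to 25155 TPM (log2 difference -0.63 ± 0.15, limma adjusted p = 0.0164), Gm10925, the copy of mt-Atp6, from 18537 to 9755 TPM (-0.74 ± 0.18, adjusted p = 0.023), and Gm28439, the copy of mt-Nd4, from 294 to 185 TPM (-0.75 ± 0.16, adjusted p = 0.0118). Gm10222, the copy of mt-Nd4l, was at medians of 7176 and 6294 TPM and did not pass (limma adjusted p = 0.465), nor did Gm28438, the copy of mt-Nd3. All of these levels are uncertain because the windows are shared.

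Gm29216 went the other way. It was between 0 and 13.2 TPM in Con (median 2.44) and between 3.34 and 472 TPM in AP (median 24.5), and 5 of 8 AP libraries lay above every Con library. AP 15 had 472 TPM and AP 19 had 284 TPM, and the remaining AP libraries had between 3.34 and 45.0 TPM. The log2 difference was 3.20 ± 0.72 (limma adjusted p = 0.0145). In SAP libraries it was between 2610 and 3838 TPM, while mt-Co1 was between 8059 and 15707 TPM there.

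Removing the mitochondrial genes changed both how many genes passed and in which direction. Without mt- genes 384 of 10834 genes passed (3.54%), 211 higher (1.95%) and 173 lower (1.6%), and without mt- genes and copies 498 of 11061 passed (4.5%), 148 higher (1.34%) and 350 lower (3.16%). The share of calls that were higher in AP was thus 79.4% as deposited, 54.9% without mt- genes and 29.7% without mt- genes and copies. Going from the deposited scale to the scale without mt- genes and copies lowered the log2 difference by a median of 0.17 over 10530 genes (change -0.171, quartiles -0.190 and -0.139). The median log2 difference of all genes tested went from 0.06 to -0.02 and -0.09 on the 3 scales. With quantile normalization 59.4% of 653 calls were higher in AP, and after rescaling without the 50 most abundant genes 47.4% of 409 calls were. Not every setting lowered this share so far. It was 74.3% of 1006 calls with libraries centred on their median and 85.9% of 1458 calls with array weights.

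The genes called on the 3 scales were largely nested. Of the 459 genes that were higher as deposited, 147 (32%) were also called higher without mt- genes and copies, and these make up 99.3% of the 148 called there. Of the 119 lower genes, 111 (93.3%) were also called lower there, where they are 31.7% of 350. The lower genes not among them are mt- genes and nuclear copies, which that scale leaves out of the test. No gene was called in opposite directions (0 genes). The 147 higher genes that were kept had a median log2 difference of 0.82 as deposited, against 0.55 for the 312 that were not. The 239 genes called lower without mt- genes and copies but not as deposited had a median log2 difference of -0.58 on the former scale. Some of them were also called lower without mt- genes alone, where 169 of the 350 were called lower.

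**Figure D2:**
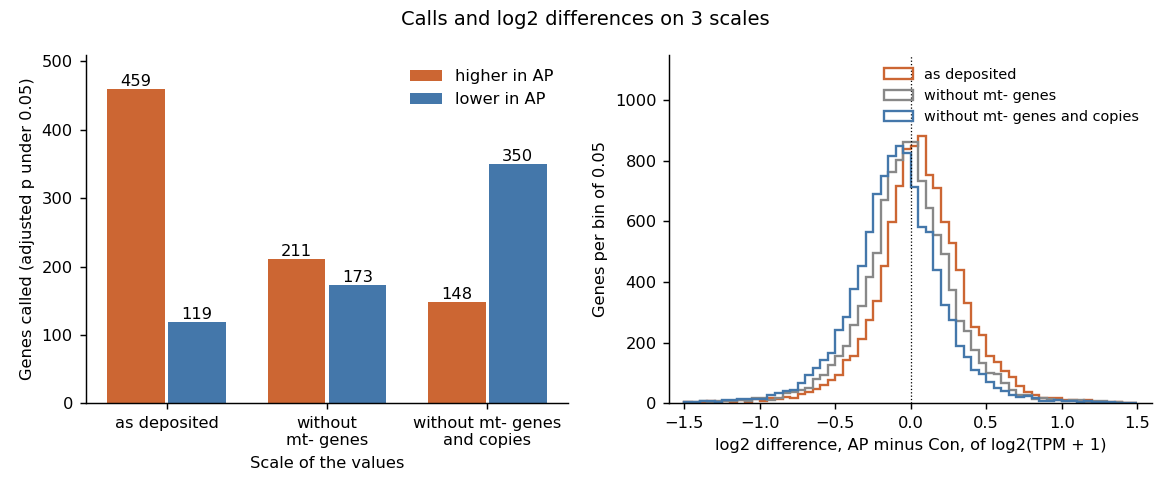
Left, numbers of genes called higher and lower in AP than in Con (adjusted p under 0.05) on the 3 scales. Right, histograms of the log2 difference of all genes tested (AP minus Con, log2(TPM + 1), bins of 0.05) on the same scales, cut at 1.5 either way; higher calls go from 459 to 148 and lower calls from 119 to 350.

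The genes that lost their call include abundant ones of moderate change, but as a set they were not more abundant. The 312 higher genes not kept without mt- genes and copies had a median level of 42.3 TPM, against 46.8 TPM for the 147 kept. Without mt- genes 249 of the called genes lost the call, and the 5 with the highest levels were Mup12, Chchd10, Rps27, Itih4 and Rps29. Chchd10, a protein of the mitochondrial intermembrane space, was between 1111 and 1525 TPM in Con (median 1329) and between 1549 and 1996 TPM in AP (median 1856). All 8 AP libraries stood above every Con library, and the log2 difference was 0.45 ± 0.11 (limma adjusted p = 0.0182) as deposited and 0.25 ± 0.12 (limma adjusted p = 0.235) without mt- genes and copies. With the log2 share of mt- genes as a covariate it passed, at 0.69 (limma adjusted p = 0.0337), as did Gstm3, Apoa4 and 2900009J06Rik, the only 4 calls of that fit. Rps29, a ribosomal protein, was between 979 and 1545 TPM in Con and between 1291 and 1833 TPM in AP, with a log2 difference of 0.41 as deposited (limma adjusted p = 0.0364) and 0.21 without mt- genes and copies (limma adjusted p = 0.24). Rps27 (0.56 and 0.36), the plasma protease inhibitor chain Itih4 (0.63 and 0.43) and the major urinary protein Mup12 (0.78 and 0.58) gave the same picture, and their levels overlapped between the groups. Hist2h2aa1, a histone H2A gene, was between 106 and 156 TPM in Con and between 162 and 211 TPM in AP, with no overlap, and its log2 difference went from 0.46 (limma adjusted p = 0.023) to 0.26 (limma adjusted p = 0.183).

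Other genes gained a call. Ces1b, a carboxylesterase, was between 2134 and 3782 TPM in Con (median 3571) and between 1939 and 2863 TPM in AP (median 2211). Its log2 difference was -0.48 (limma adjusted p = 0.0709) as deposited and -0.68 ± 0.17 (limma adjusted p = 0.0297) without mt- genes and copies. Cps1, which commits ammonia to the urea cycle, was between 496 and 1252 TPM in Con and between 350 and 707 TPM in AP, with -0.65 (limma adjusted p = 0.114) and -0.85 (limma adjusted p = 0.0498). Sult1a1, a phenol sulfotransferase, had nearly equal medians of 118 and 115 TPM, and it passed as lower only without mt- genes and copies (-0.39, limma adjusted p = 0.0415, against -0.19, limma adjusted p = 0.414, as deposited).

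On all 3 scales 145 genes were higher and 111 lower in AP. Of these, 40 had all AP libraries above every Con library and 8 had all AP libraries below, counted on the values as deposited, where 0.644% and 0.104% of genes tested did so. Mup9 had the highest level of all, and examples from the enzymes, carriers and secreted proteins of hepatocytes follow. Apoa4, an apolipoprotein of triglyceride-rich lipoproteins, was between 118 and 377 TPM in Con (median 263) and between 658 and 1666 TPM in AP (median 1203), far apart in every library (2.30 ± 0.25, limma adjusted p = 2.37e-05). Cyp2e1, a cytochrome P450 of pericentral hepatocytes that oxidizes ethanol and ketones, was between 832 and 2008 TPM in Con (median 1354) and between 2136 and 4056 TPM in AP (median 2886). In such bulk libraries fewer cells of a type and less RNA per cell cannot be told apart. No AP library reached down to a Con library, and the log2 difference was 1.16 ± 0.18 as deposited (limma adjusted p = 0.000494) and 0.96 ± 0.16 without mt- genes and copies (limma adjusted p = 0.0015).

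Slc27a2, a transporter and activating enzyme of very long chain fatty acids, was between 41.7 and 84.8 TPM in Con (median 70.5) and between 95.2 and 237 TPM in AP (median 149), with no overlap. Its log2 difference was 1.22 ± 0.23 (limma adjusted p = 0.00443), and 1.03 without mt- genes and copies. Slc25a20, which carries acylcarnitines into mitochondria, was between 14.6 and 24.2 TPM in Con and between 28.6 and 42.0 TPM in AP (log2 difference 0.82 ± 0.11, limma adjusted p = 0.000161, and 0.64 without mt- genes and copies). These AP libraries were all above the Con libraries. Glyat, which joins glycine to acyl-CoA in detoxification, was between 31.5 and 45.1 TPM in Con (median 40.7) and between 47.9 and 79.4 TPM in AP (median 71.5), again without overlap (0.75 ± 0.16, limma adjusted p = 0.0118, and 0.55, adjusted p = 0.0434). Glyat was lower in SAP than in AP, at a median of 29.5 TPM (log2 difference -1.21, limma adjusted p = 3.58e-07).

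Gpx1, a selenium-containing glutathione peroxidase, was between 565 and 1470 TPM in Con (median 969) and between 1157 and 2336 TPM in AP (median 1637). Only 4 AP libraries exceeded every Con library, and the log2 difference was 0.84 ± 0.21 (limma adjusted p = 0.022) as deposited and 0.64 (adjusted p = 0.0419) without mt- genes and copies. Gstt2, a theta-class glutathione transferase, was between 71.3 and 93.2 TPM in Con and between 90.5 and 165 TPM in AP, where 7 libraries were above every Con library (0.59 ± 0.12, limma adjusted p = 0.00888). In SAP it was between 28.3 and 49.4 TPM, below every Con and AP library (SAP minus AP -1.64, limma adjusted p = 1.26e-11). Tmem120a, a membrane protein of the nuclear envelope, was between 13.6 and 27.6 TPM in Con and between 27.9 and 44.7 TPM in AP, without overlap (0.85 ± 0.18, limma adjusted p = 0.00901). Slc10a1, the bile acid uptake carrier of hepatocytes, was named after its values were seen. It rose from a median of 64.8 to 124 TPM (0.80 ± 0.19, limma adjusted p = 0.0164) and was at 36.1 TPM in SAP (SAP minus AP -1.69, limma adjusted p = 1.34e-08).

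The falls on all 3 scales include the mu-class glutathione transferases, which attach glutathione to reactive compounds. Gstm1 was between 1569 and 2534 TPM in Con (median 2308) and between 775 and 1492 TPM in AP (median 1086). All AP libraries were below all Con libraries, and the log2 difference was -1.04 ± 0.23 (limma adjusted p = 0.0118), and -1.24 without mt- genes and copies. Gstm3 was between 14.4 and 39.4 TPM in Con (median 22.1) and between 3.24 and 10.8 TPM in AP (median 6.21), also without overlap, with a log2 difference of -1.73 ± 0.21 (limma adjusted p = 8.19e-05). The level of Gstm3 is uncertain, since other genes hold 28.8% of its windows. Of the 7 Gstm genes tested, 2 fell as deposited (28.6%, against 1.13% of all genes tested) and 4 without mt- genes and copies (57.1%, against 3.16%). Their medians were -0.52 and -0.72 where all genes tested had 0.06 and -0.09. Their summed level as deposited was between 1841 and 2973 TPM in Con and between 946 and 1737 TPM in AP, with all 8 AP libraries below. Gstm2, named after its values were seen, passed only without mt- genes and copies (-0.72, limma adjusted p = 0.0372, against -0.52, limma adjusted p = 0.136, as deposited).

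Sult1d1, a sulfotransferase of catecholamines and other amines, was between 19.3 and 34.1 TPM in Con (median 28.8) and between 9.61 and 18.3 TPM in AP (median 15.8). The groups did not overlap, and the log2 difference was -0.84 ± 0.19 (limma adjusted p = 0.0154). Olfr1033, annotated as an olfactory receptor, was between 50.6 and 75.4 TPM in Con (median 68.6) and between 14.1 and 46.9 TPM in AP (median 28.9), without overlap (-1.17 ± 0.20, limma adjusted p = 0.00259). In SAP it was between 94.3 and 197 TPM, above every library of the other groups (SAP minus AP 2.24, limma adjusted p = 4.99e-10). Lsamp, a cell adhesion protein first described in the limbic system, fell from between 40.2 and 154 TPM to between 18.5 and 65.7 TPM (-1.25 ± 0.29, limma adjusted p = 0.0154), with 6 AP libraries below every Con library. Hamp2, a paralog of the iron hormone hepcidin, was between 60.3 and 692 TPM in Con (median 318) and between 34.4 and 230 TPM in AP (median 71.3). The groups overlapped broadly, and its log2 difference of -1.66 ± 0.46 (limma adjusted p = 0.036) did not pass without any 1 of 11 of the 16 libraries.

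**Figure D3:**
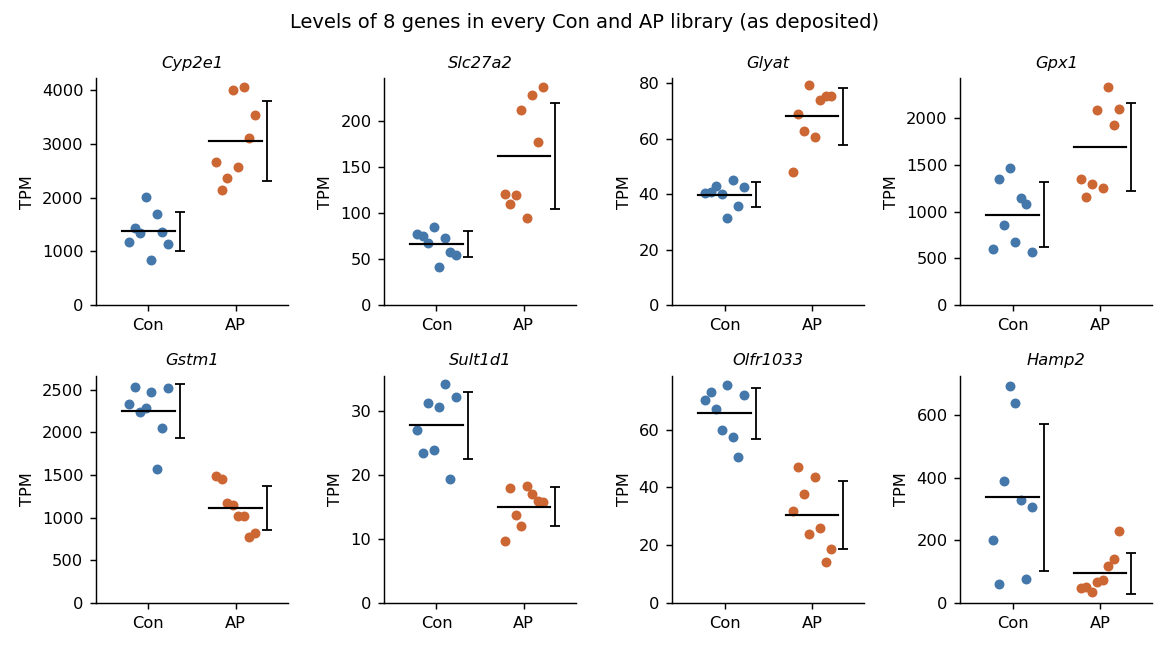
TPM as deposited of 8 genes called on all 3 scales in every Con and AP library (points), with the group mean (line) and SD (bar, n = 8). Cyp2e1, Slc27a2 and Glyat rise and Gstm1, Sult1d1 and Olfr1033 fall without overlap, while Gpx1 and Hamp2 overlap.

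The secretory pathway was followed from the entry of proteins into the endoplasmic reticulum to their export. As deposited, 5 of 24 genes of the translocon, signal recognition particle and signal peptidase rose (20.8%, against 4.35% of all genes tested) and none fell (0 genes). Their median log2 difference was 0.26 against 0.06 over all genes. Without mt- genes and copies 0 of 24 passed by limma (7 had an unadjusted p under 0.05, 6 of them higher), with a median of 0.09 against -0.09. Their summed level as deposited was between 694 and 971 TPM in Con and between 972 and 1294 TPM in AP. All 8 AP libraries were above, but the ranges nearly touched, and the sum was not computed on the rescaled values. Sec61b, a subunit of the translocation channel, was between 133 and 233 TPM in Con and between 229 and 335 TPM in AP, 7 of them above every Con library (0.49 ± 0.14, limma adjusted p = 0.0372, and 0.29, adjusted p = 0.148, without mt- genes and copies). Ssr4, a translocon-associated protein, was at medians of 130 and 173 TPM (0.47, limma adjusted p = 0.0293, and 0.27, adjusted p = 0.146). For N-glycan assembly 2 of 29 rose (6.90%) and for the COPII, COPI and p24 cargo carriers 3 of 36 rose (8.33%), near the 4.35% of all genes tested, and on the scale without mt- genes and copies 0 passed in either list by limma (8 and 5 at an unadjusted p under 0.05). Dpm1, a subunit of dolichol phosphate mannose synthase, was at medians of 10.5 and 20.4 TPM (0.75 ± 0.20, limma adjusted p = 0.0287). Its median lies between sets of AP libraries, with AP 11, 12, 13 and 16 between 10.1 and 14.2 TPM, near the Con range, and AP 15, 17, 18 and 19 between 26.6 and 30.9 TPM. Without the latter 4 its difference was 0.19 (limma adjusted p = 1.0). Cope, a coatomer subunit, was at 116 and 156 TPM (0.38 ± 0.10, limma adjusted p = 0.0346).

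Degradation of proteins from the endoplasmic reticulum kept part of its calls. Of 25 genes tested 6 rose as deposited (24%, against 4.35% of all genes tested). Without mt- genes and copies 3 rose (12%, against 1.34%), namely Derl3, Derl1 and Selenos, the last named after its values were seen. The medians on these scales were 0.36 and 0.17. Derl3, a membrane protein that moves misfolded proteins out of the endoplasmic reticulum, was between 1.51 and 6.67 TPM in Con (median 3.72) and between 20.4 and 42.8 TPM in AP (median 26.7), far apart in every library. The log2 difference was 2.70 ± 0.39 as deposited and 2.59 ± 0.39 without mt- genes and copies (limma adjusted p = 0.000409 and 0.000673). Derl1, a family member, was between 23.4 and 41.2 TPM in Con and between 40.9 and 51.9 TPM in AP (0.55 ± 0.12, limma adjusted p = 0.0131, and 0.36, adjusted p = 0.0422). In SAP the median of Derl3 was 53.2 TPM, and its difference from AP did not pass (0.57, limma adjusted p = 0.191).

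The promoter of Derl3 is printed because it holds the element known to bind the ATF6 factors of the unfolded protein response. The 79 bases from 186 to 108 bases before the start in RefSeq (GRCm38.p6, chr10:75893212-75893290, plus strand) contain the letters CCAAT and CCACG with 9 bases between them once, on the opposite strand, 156 to 138 bases before the start, and capitals mark the match.
Derl3 promoter: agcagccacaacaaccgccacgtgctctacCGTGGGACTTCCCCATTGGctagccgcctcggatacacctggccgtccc
Promoters of 250 bases before to 50 bases after the start were matched for 336 of the 459 higher genes, 75 of the 119 lower genes and 7825 of the tested genes, and both strands were searched. The element was in 2 promoters of higher genes (0.595%) and 16 of tested genes (0.204%). The unfolded protein response element was in 0.893% and 1.07%, the antioxidant element (TGAC, 3 bases, GC) in 14.0% and 17.0%, the ETS motif in 8.33% and 9.92%, and the NRF1 motif in 12.5% and 11.8%. Among promoters of lower genes the first element was in 1 of 75 (1.33%), the ETS motif in 2.67% and the NRF1 motif in 5.33%. A match is a run of letters and not a measured binding site.

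Proteins of the mitochondrion encoded in the nucleus were followed beside the mitochondrial genome, and most did not pass. Of 80 mitochondrial ribosomal proteins 11 rose and 1 fell (15% called, against 5.48% of all genes tested), with a median of 0.30. Without mt- genes and copies 3 rose and 2 fell (6.25% called, against 4.5%), with a median of 0.11. Mrpl17, of the large subunit, was between 61.7 and 110 TPM in Con (median 77.8) and between 112 and 156 TPM in AP (median 122), without overlap (0.69 ± 0.14, limma adjusted p = 0.00892, and 0.49, adjusted p = 0.0285). Mrps23, of the small subunit, was at medians of 5.07 and 10.1 TPM (0.83 ± 0.20, limma adjusted p = 0.0175, and 0.68, adjusted p = 0.0349). The 1 that fell, Mrpl23, was named after its values were seen, and its medians were 38.8 and 12.3 TPM (-1.13 ± 0.28, limma adjusted p = 0.0226). Of the 23 genes of the TIM and TOM import machines 4 rose as deposited (17.4%, against 4.35% of all genes tested) and 1 without mt- genes and copies (4.35%, against 1.34%). The gene that kept its call was Timm17a, a channel subunit of the inner membrane, at medians of 4.32 and 10.0 TPM (0.76 ± 0.16, limma adjusted p = 0.0105, and 0.61, adjusted p = 0.0199). Assembly factors of the respiratory chain gave 0 calls among 41 as deposited by limma (6 at an unadjusted p under 0.05).

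In protein synthesis, 4 of 64 initiation and elongation factors rose as deposited (6.25%, near the 4.35% of all genes tested), and without mt- genes and copies 2 rose and 1 fell. Eef1b2, an exchange factor of elongation, was between 32.3 and 114 TPM in Con and between 89.6 and 171 TPM in AP (1.02 ± 0.22, limma adjusted p = 0.0118). Eif4g2, a scaffold of initiation, was at medians of 23.9 and 39.7 TPM (0.80 ± 0.19, limma adjusted p = 0.0194), and Dars, the aspartyl-tRNA synthetase and the only call among 20 synthetases, at 2.49 and 4.92 TPM (0.71 ± 0.18, limma adjusted p = 0.0259). All 3 genes overlapped between groups and passed on the 3 scales. In the nucleus, 2 of 25 Sm and LSm splicing proteins rose as deposited (8%, against 4.35% of all genes tested). Without mt- genes and copies 0 rose and 3 fell (12%, against 3.16%), and their median went from 0.16 to -0.02. The Mediator subunits gave 0 of 26 calls by limma as deposited (3 at an unadjusted p under 0.05). Of the Zfp zinc finger genes, many of which bind DNA, 1 of 130 rose and 1 fell as deposited (1.54% called, against 5.48%).

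Host genes of small nucleolar RNAs had the lowest median of the families after the mitochondrial genome and Gstm. It was -0.25 over 11 genes as deposited, with 0 calls by limma (2 at an unadjusted p under 0.05, both lower). Without mt- genes and copies it was -0.46 over 12 genes, and 3 fell (25%, against 3.16% of all genes tested). Snhg3 was between 10.9 and 23.1 TPM in Con (median 13.7) and between 5.74 and 12.4 TPM in AP (median 9.71), and 6 AP libraries were below every Con library. The log2 difference was -0.57 (limma adjusted p = 0.068) as deposited and -0.77 ± 0.19 (limma adjusted p = 0.0242) without mt- genes and copies. In SAP it was at a median of 33.6 TPM (SAP minus AP 1.70, limma adjusted p = 1.01e-08).

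Other detoxifying families than Gstm were also counted. Over all genes tested, 4.35% rose and 1.13% fell as deposited, and 1.34% rose and 3.16% fell without mt- genes and copies. Of 12 Cyp2c genes only Cyp2c69 was called. It was between 16.7 and 104 TPM in Con (median 47.5) and between 1.80 and 25.2 TPM in AP (median 4.64), with 6 AP libraries below every Con library (-2.64 ± 0.44, limma adjusted p = 0.00151), but 54.3% of its windows occur in other genes, chiefly Cyp2c40, whose own difference of -0.19 did not pass (limma adjusted p = 0.761). Of 18 Ugt glucuronosyltransferases 4 rose as deposited, all of the Ugt1a locus whose transcripts share exons, and 0 of 19 passed without mt- genes and copies by limma (5 at an unadjusted p under 0.05). Of 13 other glutathione transferases Gstt2 rose and Gstp2 fell, and of 17 alcohol dehydrogenases and aldo-keto reductases 3 rose, of which Akr7a5, an aldehyde reductase, kept its call (medians 37.0 and 67.6 TPM, 0.90 ± 0.20, limma adjusted p = 0.0152, and 0.70, adjusted p = 0.0276). Aldh3a2, a fatty aldehyde dehydrogenase, was between 32.1 and 52.0 TPM in Con and between 54.0 and 116 TPM in AP. These groups did not overlap, and it passed as deposited (0.74 ± 0.20, limma adjusted p = 0.0311) but not without mt- genes and copies (0.55, limma adjusted p = 0.103). Of 30 peroxiredoxins, peroxidases, thioredoxins and glutaredoxins 5 rose as deposited and 1, Gpx1, without mt- genes and copies.

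Of 152 Slc genes outside Slc25, 6 rose and 2 fell as deposited (5.26% called, near the 5.48% of all genes tested), and without mt- genes and copies 2 of 156 rose and 8 fell (6.41%, where 4.5% of all genes were called). Of 33 mitochondrial Slc25 carriers 4 rose as deposited (12.1%, against 4.35% of all genes tested), with a median of 0.20 that became -0.03 without mt- genes and copies. ABC transporters gave 0 of 29 calls by limma as deposited (4 at an unadjusted p under 0.05). Of 27 Mup genes, which encode major urinary proteins made in liver, 4 rose as deposited (14.8%) and 2 without mt- genes and copies (7.14%). Over all genes tested 4.35% and 1.34% rose on these scales. Mup9 was between 9268 and 30298 TPM in Con (median 16416) and between 25526 and 67964 TPM in AP (median 39978), with 5 AP libraries above every Con library (1.19 ± 0.23, limma adjusted p = 0.00502). Mup11 was at medians of 243 and 508 TPM (1.09 ± 0.20, limma adjusted p = 0.00378). Both are uncertain, as 79.1% and 77.8% of their windows occur in other Mup genes. Of 31 serpins 3 rose as deposited (9.68%), among them Serpina1d, an alpha-1 antitrypsin paralog with 50.9% of windows shared, at medians of 57.7 and 185 TPM (1.61 ± 0.33, limma adjusted p = 0.00892). Of 24 H2 genes of the major histocompatibility complex 1 fell (4.17%, against 1.13% of all genes tested), the liver-secreted H2-Q10. It was between 525 and 919 TPM in Con and between 300 and 660 TPM in AP (-0.57 ± 0.15, limma adjusted p = 0.0267).

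**Figure D4:**
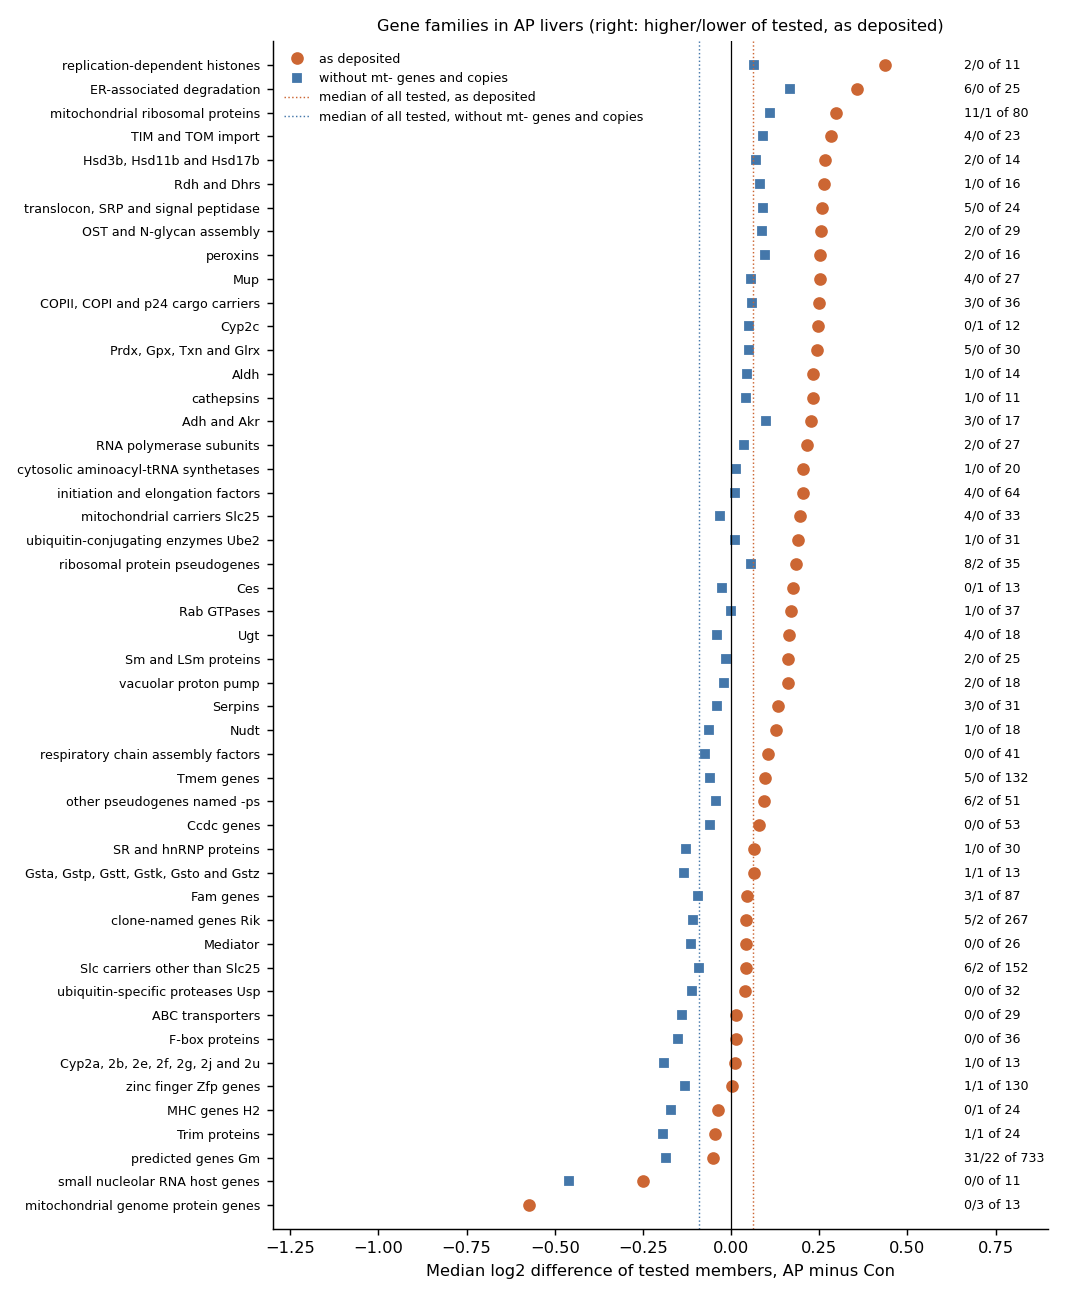
Median log2 difference (AP minus Con, log2(TPM + 1)) of the tested members of each family, as deposited (circles) and without mt- genes and copies (squares), with dotted lines at the medians of all genes tested; numbers at the right count members called higher and lower of those tested as deposited. Squares lie left of circles in the families drawn with both, and mitochondrial genome protein genes have no square because that scale leaves them out.

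Symbol classes with no assigned function were also counted, beside 5.48% of all genes called as deposited and 4.5% without mt- genes and copies. Of 733 predicted genes (Gm), 31 rose and 22 fell as deposited (7.23% called), and without mt- genes and copies 18 of 808 rose and 42 fell (7.43%). Of 267 clone-named genes (Rik), 5 rose and 2 fell (2.62%), and then 2 rose and 7 fell of 292 (3.08%). Of 132 Tmem genes 5 rose (3.79%, near the 4.35% of all genes that rose) and 3 of these kept the call, among them Tmem50a at medians of 17.0 and 28.5 TPM (0.67 ± 0.14, limma adjusted p = 0.00887). Of 87 Fam genes 3 rose and 1 fell (4.60% called, near the share of all genes), with Fam89a at medians of 3.77 and 8.68 TPM (0.97 ± 0.20, limma adjusted p = 0.00852) and at 0.335 TPM in SAP. The Ccdc genes gave 0 of 53 calls, the ubiquitin-specific proteases 0 of 32 and the F-box proteins 0 of 36 as deposited by limma (6, 1 and 4 at an unadjusted p under 0.05). Of 24 Trim genes 1 rose and 1 fell. Trim30a, an interferon-inducible member, fell from a median of 6.07 to 2.66 TPM (-1.02 ± 0.23, limma adjusted p = 0.0154), and Trim7 rose from 14.7 to 27.6 TPM (0.73 ± 0.21, limma adjusted p = 0.0413) but did not pass without mt- genes and copies (0.55, limma adjusted p = 0.117). The clone-named 2900009J06Rik was between 1.13 and 5.39 TPM in Con and between 0.690 and 2.01 TPM in AP (-1.05 ± 0.18, limma adjusted p = 0.0016).

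Among 130 symbol stems with at least 10 genes tested, 67 had 0 genes called by limma. The highest shares of calls were in Ndufb (6 of 12 entries, chiefly complex I subunits), Psmb (4 of 10, proteasome), Rps (18 of 54, 33.3%), Cox (6 of 23, 26.1%) and Ugt (4 of 18, 22.2%). In Ndufb 5 entries rose and 1 fell, and the latter was Ndufb1-ps, annotated as a non-coding RNA. The calls of the Rps and Rpl stems include pseudogenes named -ps. The stems with most genes were Slc (12 of 179 called, 6.70%), Tmem (5 of 132, 3.79%), Zfp (2 of 130, 1.54%), Fam (4 of 87, 4.60%) and Rpl (12 of 71, 16.9%). Without mt- genes and copies the counts went to 0 higher and 2 lower in Ndufb, to 1 higher in Psmb and to 3 higher and 1 lower in Rps.

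Pseudogenes and unnamed entries often shared sequence with a parent gene. Of processed pseudogenes 26 of 233 rose and 5 fell (13.3% called, against 5.33% of protein-coding genes), and of 45 unprocessed pseudogenes, the class that holds the mitochondrial copies, 4 rose and 7 fell (24.4%). Entries with no given name (Gm, Rik, -ps or a clone accession) made up 52 of the 459 higher genes (11.3%), against 1118 of the 10555 genes tested (10.6%), and 40 of these shared at least 20% of their windows with another gene. In 29 of the 40 the gene sharing most windows changed in the same direction as a log2 difference, whether or not it passed. Most genes tested had a positive sign as deposited (median log2 difference 0.06), and no expected number was worked out for the 29. Among the 119 lower genes 30 (25.2%) were such entries, 17 of them with shared windows, and in 6 of the 11 whose partner was tested the partner had the same sign.

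Several of these entries passed while the gene sharing most windows with them did not. Rpl14-ps1 was between 70.5 and 169 TPM in Con (median 114) and between 188 and 322 TPM in AP (median 221), without overlap (1.06 ± 0.20, limma adjusted p = 0.00443). It shares 78.3% of its windows with Rpl14, which did not pass (-0.07, limma adjusted p = 0.845), and its share of their sum went from a median of 21.4% in Con to 35.3% in AP. Gm2000, with 85.1% of windows in the ribosomal protein gene Rpl35, was between 0 and 118 TPM in Con (median 18.4) and between 0 and 0.340 TPM in AP (median 0.110), with Con libraries spread over the whole range (-3.76 ± 0.72, limma adjusted p = 0.00502). Rpl35 itself was at medians of 335 and 360.4 TPM (0.09, limma adjusted p = 0.791). Cyp4b1-ps1, a cytochrome P450 pseudogene with 35.0% of its windows in Cyp4b1, was between 0 and 12.9 TPM in Con and between 14.4 and 136 TPM in AP, all of them above Con (3.59 ± 0.59, limma adjusted p = 0.00151), and in SAP its median was 13.5 TPM. Cyp4b1 had the same sign but did not pass (0.10, limma adjusted p = 0.881). Gm7336, whose windows are all shared, 95.6% with Gapdh, was at medians of 55.0 and 109 TPM (1.19 ± 0.29, limma adjusted p = 0.0222), and like Gm2000 and Gm44805 it was named after its values were seen. Gapdh did not pass (-0.25, limma adjusted p = 0.154). Gm44805, which overlaps the apolipoprotein genes Apoc2 and Apoc4 on their strand, was between 496 and 2754 TPM in Con and between 62.9 and 928 TPM in AP (-1.83 ± 0.45, limma adjusted p = 0.0218), and its share of the sum with Apoc4 went from a median of 23.9% to 10.6%. It shares most windows with Apoc2 (78.5%), which did not pass (0.29, limma adjusted p = 0.16).

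Some named genes overlap a neighbour on the opposite strand. Nop9, a nucleolar protein, was between 56.1 and 354 TPM in Con (median 188) and between 5.88 and 111 TPM in AP (median 52.0), with a log2 difference of -2.48 ± 0.56 (limma adjusted p = 0.0134). AP 15, 17, 18 and 19 were between 5.88 and 27.4 TPM and the other AP libraries between 76.5 and 111 TPM, within the Con range, and without the former 4 the difference was -0.85 (limma adjusted p = 0.715). Cideb, a lipid droplet protein of hepatocytes, overlaps it and was between 106 and 207 TPM in Con (median 149) and between 196 and 331 TPM in AP (median 251), with 6 AP libraries above every Con library (0.75 ± 0.17, limma adjusted p = 0.0131, named after its values were seen). Their sum overlapped between groups, at medians of 348 and 317 TPM, while the share of Nop9 in it went from a median of 54.6% to 18.6%. Selenop, which carries selenium from liver to other tissues, was between 104 and 359 TPM in Con (median 239) and between 308 and 1136 TPM in AP (median 555), where 6 libraries exceeded every Con library (1.41 ± 0.28, limma adjusted p = 0.00746). Ccdc152 on its other strand was at medians of 577 and 416 TPM and did not pass (-0.41 ± 0.28, limma adjusted p = 0.447). The share of Selenop in their sum went from a median of 27.2% to 53.5%, and to 99.5% in SAP. Gm10680, antisense to the apolipoprotein gene Apoa4, was between 6.00 and 14.6 TPM in Con and between 17.6 and 269 TPM in AP, without overlap (2.86 ± 0.42, limma adjusted p = 0.000478). Whether strand was used in counting is not given in the sources used here, so reads of such partners may not be told apart and these levels are uncertain. Fyb, an adaptor protein of leukocytes, overlaps other genes on both strands and was between 45.7 and 101 TPM in Con and between 0.680 and 57.2 TPM in AP (-2.07 ± 0.54, limma adjusted p = 0.0268).

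Genes called in the 2 directions differed in the genomic span of their gene models. Over 9506 tested protein-coding genes the median span was 22.0 kb in GENCODE M21, over the 417 that were higher in AP it was 11.6 kb with a median level of 46.2 TPM, and over the 90 that were lower it was 42.1 kb with a median level of 4.97 TPM. In 5 groups of equal size from the shortest to the longest span the numbers of higher genes were 151, 99, 84, 47 and 36, and of lower genes 16, 10, 11, 16 and 37. Without mt- genes and copies the higher genes numbered 39, 34, 27, 14 and 8 and the lower genes 53, 38, 43, 59 and 92. Higher calls were thus most frequent among short genes and lower calls among long genes on both scales. The level fell along the same groups, from a median of 11.8 TPM in the shortest to 3.03 TPM in the longest, and its part in this pattern was not tested.

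The number of calls depended on single libraries. As deposited it fell from 578 to 209 without Con 1, 179 without Con 7 and 225 without Con 10, which have the highest joint shares of mitochondrial genes and copies among Con (31.9% to 36.9%). It fell to 184 without AP 15, 211 without AP 17, 352 without AP 18 and 238 without AP 19, which have the lowest joint shares among AP (13.0% to 16.8%). Leaving out any of the other libraries gave between 443 and 840 calls. With only AP 15, 17, 18 and 19 set against Con, 1229 of 10628 genes passed (11.6%), 968 higher (9.11%) and 261 lower (2.46%), and with only AP 11, 12, 13 and 16 there were 11 calls. These sets were chosen after seeing the data, so the gap between the counts is a description and not a test. Of 104 named calls that could be tested without AP 15, 17, 18 and 19, 7 passed (Gstm3, Derl3, Cyp4a14, Apoa4, Cyp4a10, Gm10680 and Cyp4b1-ps1), and in 42 the log2 difference was smaller by over 1.5 times, among them Nop9, Fyb, Dpm1, Gpx1, Selenop, Slc27a2, Gstt2, Akr7a5, Mrps23, Eif4g2, Dars, Trim30a, Olfr1033, Cyp2c69, Serpina1d and mt-Co1. Without mt- genes and copies the same exercise gave between 168 and 641 calls. Of the 105 called genes that the naming rule selects, 47 stayed called in each of the 16 leave-outs as deposited, and 1 more did in the 11 in which it was tested. Among the 47 were Cyp2e1, Slc27a2, Slc25a20, Glyat, Gstt2, Derl3, Derl1, Mrpl17, Gstm1, Gstm3, Sult1d1, Olfr1033, Lsamp, Ecm1, Selenop and Nop9. The remaining 57 lost the call without at least 1 library, in 31 of them only without the 7 libraries just named. Gpx1, Fyb and Ssr4 lost it without Con 1, 7 or 10 or AP 15, 17 or 19, H2-Q10 without Con 1, 7 or 10 or AP 18, Eif4g2 without Con 7 or AP 15, and Gm28437 without Con 7. Dpm1 and Itih4 lost it in 7 leave-outs, Aldh3a2 and Rps29 in 8, Sec61b, Cope, Trim7 and mt-Nd4l in 9, and Mup12 and Gstp2 in 11.

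**Figure D5:**
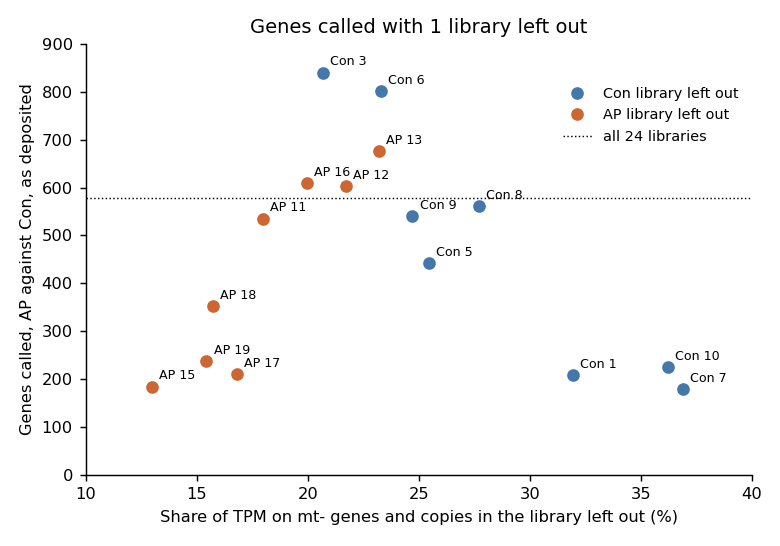
Number of genes called between AP and Con as deposited when 1 library is left out, against the joint share of TPM on mitochondrial genes and copies in that library (%). Points are libraries, coloured by group, and the dotted line is the 578 calls with all 24 libraries; counts under 400 come from the Con libraries with the highest and the AP libraries with the lowest shares.

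Markers of liver cell types were read beside these results. Hepatocyte genes were abundant in every library, with Alb, which encodes albumin and was named after its values were seen, between 13702 and 17641 TPM in Con and between 12467 and 21293 TPM in AP, and 0 of 12 hepatocyte markers were called as deposited by limma (3 at an unadjusted p under 0.05). Without mt- genes and copies 1 of the 12 fell, Cps1 (8.33%, against 3.16% of all genes tested). The summed level of 12 pericentral markers, of which Cyp2e1 is the main part, was between 1939 and 3753 TPM in Con and between 3780 and 5948 TPM in AP, with all 8 AP libraries above. Without Cyp2e1 the pericentral sum was between 1107 and 1745 TPM in Con and between 1424 and 1909 TPM in AP. The groups then overlapped, and only 2 AP libraries were above every Con library. The sum of 12 periportal markers overlapped (1870 to 3425 and 1437 to 3445 TPM). As deposited 0 of the 12 were called by limma (3 at an unadjusted p under 0.05, 2 of them lower). Without mt- genes and copies 1 fell, again Cps1 (6 unadjusted, 5 of them lower). The periportal medians on these scales were -0.18 and -0.38, where all genes tested had 0.06 and -0.09. Of 10 pericentral markers tested 2 rose as deposited (20%, against 4.35% of all genes tested). Without mt- genes and copies 1 of 11 rose (9.09%, against 1.34%). The sum of 12 neutrophil markers was between 2.80 and 29.4 TPM in Con and between 3.77 and 7.80 TPM in AP, and none of the 4 tested was called (0 by limma, 1 at an unadjusted p under 0.05). The sum of 12 T and NK cell markers was between 1.84 and 13.3 TPM in Con and between 1.78 and 4.25 TPM in AP, and 0 of 11 Kupffer cell markers were called by limma (0 at an unadjusted p under 0.05). The sum of 21 exocrine pancreas genes, of which Prss1 and Amy2b were at 0 in all 16 libraries and Cela1 gave nearly all, was between 17.8 and 41.8 TPM in Con and between 16.7 and 26.6 TPM in AP.

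Among 7 stellate cell markers tested 1 fell as deposited (14.3%, against 1.13% of all genes tested), namely Ecm1, a secreted matrix protein. It was between 125 and 196 TPM in Con (median 169) and between 42.2 and 136 TPM in AP (median 100), with 7 AP libraries below every Con library, and its log2 difference was -0.84 ± 0.17 (limma adjusted p = 0.00706) and -1.04 without mt- genes and copies. The summed level of all 10 stellate markers was between 171 and 244 TPM in Con and between 59.2 and 178 TPM in AP, but Ecm1 made up most of it. Without Ecm1 the sum of the other 9 was between 32.8 and 59.3 TPM in Con and between 16.9 and 51.7 TPM in AP, and the groups overlapped. Dcn, the matrix proteoglycan decorin and the next most abundant of these markers, was named after its values were seen. It was between 17.4 and 32.6 TPM in Con and between 9.25 and 28.3 TPM in AP and did not pass (-0.18 ± 0.20, limma adjusted p = 0.682).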

How the data were processed

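RNA was sequenced in 24 liver libraries, of which 8 AP and 8 Con libraries were compared. The deposited table gives TPM per gene symbol with 2 decimals. The submitters' processing notes name edgeR without a version. Aligner, build and annotation were not given in the sources used here. As TPM holds no read numbers, no counting intervals were given and no count model was run. Of 55536 entries, 28559 were at 0 in all libraries, and 10555 had a mean of at least 1 TPM and were tested. limma 3.58.1 (R 4.3.3, trended prior variance) was run on log2(TPM + 1) of the 24 libraries with group as the only factor, leaving 21 degrees of freedom. Tests were two-sided with Benjamini-Hochberg adjustment, and the fit was tested on simulated data. It was repeated after rescaling to 1000000 TPM without mt- genes and, chosen after seeing the data, also without their nuclear copies.

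Copies and shared sequence were found by 50-base windows of GENCODE M21 transcripts, and genes are uncertain from 20% of windows shared or where they overlap another. The genes named are the 10 largest rises and 10 largest falls among called genes averaging at least 5 TPM (Gm, Rik and -ps names left out), the 2 members with the smallest p (lists with at least 3 tested) and the member with the highest level of each of 71 lists, and the 5 most abundant genes that lost their call without mt- genes. Mitochondrial copies and sequence or strand partners of named genes were added, and other exceptions are marked. The members, lists and rules were chosen with earlier results of these data known. Lists are described by counts and medians. Alternatives covered scaling, filter, pseudocount, covariate, threshold, variance model and left-out libraries.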

Additional observations from a re-analysis of the deposited data

Results flagged for a closer look

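Values of the genes given above were searched, on the log2(TPM + 1) scale, for a library that stands far from the other 7 of its group, by the gap to its nearest neighbour as a share of the group's range. Of 150 groups checked 2 exceeded the 95% critical value of 0.526, and chance alone exceeds it in about 1 of 20 groups. Con 8 had 1569 TPM of Gstm1, the lowest Con value, with a gap of 0.557 of the range. AP 13 had 42.2 TPM of Ecm1, the lowest AP value, with a gap of 0.552 of the range.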

How the results depend on the processing

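Counts are given as all calls, then higher and lower in AP. Against 578 (459 and 119) as deposited, rescaling without mt- genes gave 384 (211 and 173), also without the copies 498 (148 and 350), without the 50 most abundant genes 409 (194 and 215), quantile normalization 653 (388 and 265) and centring libraries on their median 1006 (747 and 259). The log2 mt- share as a covariate left 4 (2 and 2; 999 at an unadjusted p under 0.05). No filter gave 222 (160 and 62), a mean of at least 5 TPM 672 (593 and 79), a pseudocount of 0.01 517 (441 and 76), array weights 1458 (1252 and 206), and Con and AP alone without mt- genes 507 (268 and 239). Thresholds of 0.01 and 0.10 gave 78 (62 and 16) and 1036 (811 and 225). Removing AP 15, 17, 18 and 19 left 11 (9 and 2; 640 unadjusted), removing AP 11, 12, 13 and 16 gave 1229 (968 and 261), removing Con 3 and 9 gave 913 (764 and 149), and removing Con 1, 7 and 10 left 19 (15 and 4; 896 unadjusted). These 4 removals and the removal of copies were chosen after seeing the data. Leaving out 1 library gave 179 to 840 (135 to 715 and 44 to 143).

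Against 384 without mt- genes, dropping also the 50 most abundant genes gave 437 (170 and 267), and leaving out 1 library 144 to 482 (76 to 326 and 61 to 227). Against 498 without mt- genes and copies, Con and AP alone gave 722 (194 and 528), removing AP 15, 17, 18 and 19 left 17 (8 and 9), removing AP 11, 12, 13 and 16 gave 1134 (440 and 694), removing Con 1, 7 and 10 left 25 (14 and 11), and leaving out 1 library 168 to 641 (49 to 184 and 119 to 465). The difference in mitochondrial share of TPM (AP minus Con, percentage points) was -6.24, and -5.80 for protein genes, -10.4 with copies, and -6.90 to -5.52 with 1 library left out.

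Of the 105 named calls, Apoa4 and Gstm3 passed in all 37 settings, 25 in all but the covariate and the removal of 4 AP or 3 Con libraries, and none reversed (0 pairs of gene and setting, while the call was kept in 2784 and lost in 1064). Beyond the settings' own construction, the cause of these shifts was not tested. Depth is unknown, so what it limits cannot be given. No paired analysis was possible because the groups share no replicate numbers.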
